A study of Mus musculus with 21 samples.

Results

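The cytosolic aminoacyl-tRNA synthetases and the amino acid stress genes that ATF4 is known to control were followed through cultured and uncultured mouse keratinocytes. The 34 genes were selected by symbol, with the FPKM values of HFSC, CD34a6 and bulk and the authors' calls between them known, and were found as rows of the deposited tables whose gene name equals a listed symbol. Of 43776 symbols in each of 3 tables, 33 were members, made up of 20 synthetase genes, 5 stress genes, 6 genes of amino acid synthesis and 2 transporter genes. The 6 genes called synthesis genes here include Shmt2 and Mthfd2 of mitochondrial folate. The remaining listed gene, Slc7a5, was not analysed here. RNA sequencing of polyadenylated RNA was done on 21 libraries in 7 groups of 3. The groups were FACS-purified hair follicle stem cells (HFSCs), cultured HFSCs and total epidermal cells, each wild type, and 4 further groups. The cultured HFSCs are titled 3C-HFSCs, so they too are named for the 3C culture. The 4 further groups were 3C cultures started from total epidermal cells, which were grown for 10 to 14 days. They were the alpha-6 integrin+ CD34+ fraction, the alpha-6 integrin+ CD34neg fraction, cultures with dorsomorphin and cultures with cyclopamine. The inhibitors had been added for 48 h. Genotype is not stated for these 4 groups, and animal age, dose and pooling are not stated for any. Whether the replicates of a group were separate animals or cultures is not stated, and the authors' p-values may therefore measure technical spread alone.

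Expression is given as the authors' 1 FPKM (fragments per kilobase of transcript, scaled to the fragments of the library) for each locus and population, so no SD or n can stand beside a value, and read depth was unknown. Calls of higher and lower are those of the authors, at adjusted p under 0.05 in their deposited table. Whether the sorted cells stand in column HFSC or in column CD34a6 of the 3-population table, and the cultured cells in the other, is not told by the labels, and both keep their column names. Cd34, the sort marker of the hair follicle bulge, was at 8.70 FPKM in HFSC, 327 FPKM in CD34a6 and 10.6 FPKM in bulk, which was read as total epidermal cells. The summed level of 7 bulge markers was 114 FPKM in HFSC, 10902 FPKM in CD34a6 and 4845 FPKM in bulk, with Krt15 the highest in CD34a6 and bulk. All 7 were called lower in HFSC than in CD34a6. By these markers CD34a6 was the column closer to sorted bulge cells, though no label states it. HFSC is therefore only a column name here and does not state that its cells carried bulge markers. The summed FPKM was 482175 in HFSC, 406723 in CD34a6 and 917078 in bulk. Each of the 3 tables has its own normalisation, so no level is set across tables.

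Aminoacyl-tRNA synthetases join each amino acid to its tRNA, and most mammalian cells use a separate gene set for the cytosol and for mitochondria. When an amino acid runs short, uncharged tRNA activates the kinase GCN2, eIF2 is phosphorylated, and translation of the transcription factor ATF4 increases. ATF4 is known to drive genes for amino acid synthesis, amino acid import and tRNA charging, and other stresses reach it through other eIF2 kinases.

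All 33 members had higher values in the HFSC column than in CD34a6. Of these, 31 were called higher, 0 were called lower and 2, Qars and Farsa, did not pass the authors' test. Over all 13962 tested loci of that pair, 25.2% were called higher and 29.0% lower. The members were chosen with this contrast known, so these counts describe the choice and support nothing. The median log2 fold in the authors' deposited table was 1.42 for the synthetases, 2.64 for the stress genes and 2.54 for the synthesis genes, against -0.09 for all tested loci. No member changed sign when FPKM was scaled to equal sums, a step that moves each fold of this pair by -0.25.

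Among the 8 synthetases of the multi-synthetase complex, a cytosolic assembly of synthetases and scaffold proteins, 7 were higher in HFSC than in CD34a6. Iars, for isoleucine, was at 74.9 FPKM in HFSC, 14.6 FPKM in CD34a6 and 22.1 FPKM in bulk. Rars, for arginine, was at 123 FPKM in HFSC, 31.2 FPKM in CD34a6 and 80.1 FPKM in bulk. Lars, for leucine, was at 57.3 FPKM in HFSC, 19.2 FPKM in CD34a6 and 29.0 FPKM in bulk. These genes had the largest folds of the complex, with log2 folds over CD34a6 of 2.36, 1.98 and 1.58 in the authors' deposited table, each at an adjusted p of 0.000212. Eprs encodes the joined glutamyl- and prolyl-tRNA synthetase and was at 84.2 FPKM in HFSC, 31.5 FPKM in CD34a6 and 34.5 FPKM in bulk. Mars, for methionine, was at 46.4 FPKM in HFSC, 23.7 FPKM in CD34a6 and 44.9 FPKM in bulk. Kars, for lysine, was at 67.6 FPKM in HFSC, 43.5 FPKM in CD34a6 and 67.3 FPKM in bulk. In Mars and Kars the HFSC and bulk values nearly coincided, and both genes were called higher against CD34a6 only. Dars, for aspartate, was at 53.9 FPKM in HFSC, 37.9 FPKM in CD34a6 and 65.1 FPKM in bulk. Qars, for glutamine, was at 194 FPKM in HFSC, 148 FPKM in CD34a6 and 506 FPKM in bulk, and the authors' deposited table gives an adjusted p of 0.125 for HFSC against CD34a6. Per length, Qars had the highest level of the 20 cytosolic synthetase genes in CD34a6 and in bulk.

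Outside the complex, 11 of 12 synthetase genes were higher in HFSC than in CD34a6. Gars, for glycine, was at 127 FPKM in HFSC, 22.2 FPKM in CD34a6 and 77.5 FPKM in bulk, and its log2 fold of 2.51 in the authors' deposited table was the largest of the 20 synthetases. Nars, for asparagine, was at 189.8 FPKM in HFSC, 37.3 FPKM in CD34a6 and 52.5 FPKM in bulk. Sars, for serine, was at 239 FPKM in HFSC, 48.6 FPKM in CD34a6 and 154 FPKM in bulk. In each of these genes HFSC was the highest population and CD34a6 the lowest. Cars, for cysteine, was at 67.4 FPKM in HFSC, 15.8 FPKM in CD34a6 and 31.1 FPKM in bulk. Aars, for alanine, was at 81.3 FPKM in HFSC, 23.5 FPKM in CD34a6 and 21.6 FPKM in bulk. Tars, for threonine, was at 78.2 FPKM in HFSC, 25.3 FPKM in CD34a6 and 38.3 FPKM in bulk. The log2 folds of these genes over CD34a6 were 2.10, 1.79 and 1.63 in the authors' deposited table. Yars, for tyrosine, was at 61.9 FPKM in HFSC, 28.1 FPKM in CD34a6 and 30.6 FPKM in bulk. Vars, for valine, was at 73.9 FPKM in HFSC, 49.9 FPKM in CD34a6 and 38.3 FPKM in bulk. Wars, for tryptophan, was at 25.9 FPKM in HFSC, 17.1 FPKM in CD34a6 and 19.0 FPKM in bulk. Their log2 folds over CD34a6 in the authors' deposited table were 1.14 for Yars, 0.57 for Vars and 0.60 for Wars, smaller than those of Cars, Aars and Tars. Hars, for histidine, was at 41.4 FPKM in HFSC, 26.9 FPKM in CD34a6 and 72.1 FPKM in bulk.

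The subunits of phenylalanyl-tRNA synthetase, which work as a tetramer of alpha and beta chains, had different calls. Farsb, the beta chain, was at 62.9 FPKM in HFSC, 23.6 FPKM in CD34a6 and 36.5 FPKM in bulk, and was called higher against both. Farsa, the alpha chain, was at 29.5 FPKM in HFSC, 24.4 FPKM in CD34a6 and 35.1 FPKM in bulk, and was not called in any comparison of the series. The log2 folds over CD34a6 in the authors' deposited table were 1.42 for Farsb and 0.27 for Farsa, and the difference between them was not tested. The locus of Farsb also covers another coding gene, Sgpp2, whose reads could be mixed into its value. By structural class, 8 of 9 class I synthetases were higher in HFSC with a median log2 fold of 1.14 and 9 of 10 class II synthetases with a median of 1.52, Eprs holding both classes.

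**Figure D1:**
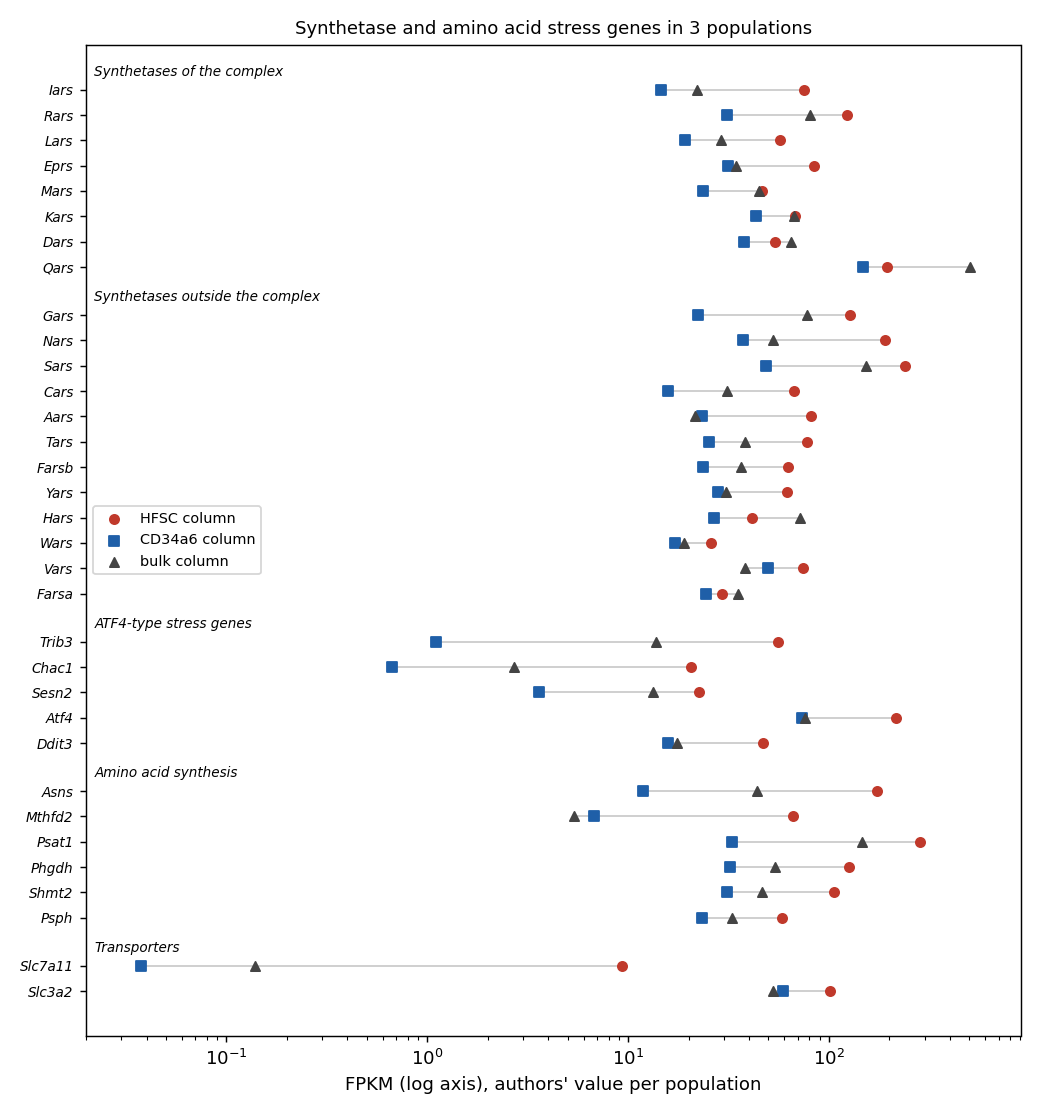
FPKM on a log axis of each of the 33 members, as 1 value of the authors for the HFSC (red circle), CD34a6 (blue square) and bulk (dark triangle) columns, sorted within each role by the fold of HFSC over CD34a6. HFSC lies right of CD34a6 in every row, from Farsa (29.5 against 24.4 FPKM) to Slc7a11 (9.35 against 0.0373 FPKM), while bulk lies furthest right for Qars (506 FPKM), Hars, Dars and Farsa.

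The mitochondrial synthetases, which charge tRNA inside mitochondria, had few calls, in both directions. Of 17 tested in the same pair, 3 were higher and 3 lower in HFSC. Over all tested loci 25.2% were called higher and 29.0% lower. The median log2 fold of these 17 was -0.08, near the -0.09 of all tested loci. Cars2 was at 5.70 FPKM in HFSC and 21.1 FPKM in CD34a6, and Hars2 at 15.2 FPKM in HFSC and 35.3 FPKM in CD34a6, both called lower. Nars2 was at 7.33 FPKM in HFSC and 4.10 FPKM in CD34a6 and was called higher. Of the 20 cytosolic genes, 17 could be set beside a mitochondrial gene for the same amino acid, with Fars2 beside both Farsa and Farsb. In 17 of these 17 pairs the deposited fold of the cytosolic gene lay above that of its mitochondrial partner, a description that the choice of members largely fixes. Kars and Gars have no separate partner because each gene is known to serve both compartments, and mitochondria are known to make glutaminyl-tRNA by another route than Qars. The scaffold and tRNA export genes included Eef1e1, a small scaffold subunit (40.7 FPKM in HFSC and 11.7 FPKM in CD34a6), and Xpot, the tRNA exporter (46.2 FPKM in HFSC and 13.7 FPKM in CD34a6). Both were called higher, as was the scaffold gene Aimp2 (36.3 FPKM in HFSC and 20.1 FPKM in CD34a6), which made 3 of 4.

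**Figure D2:**
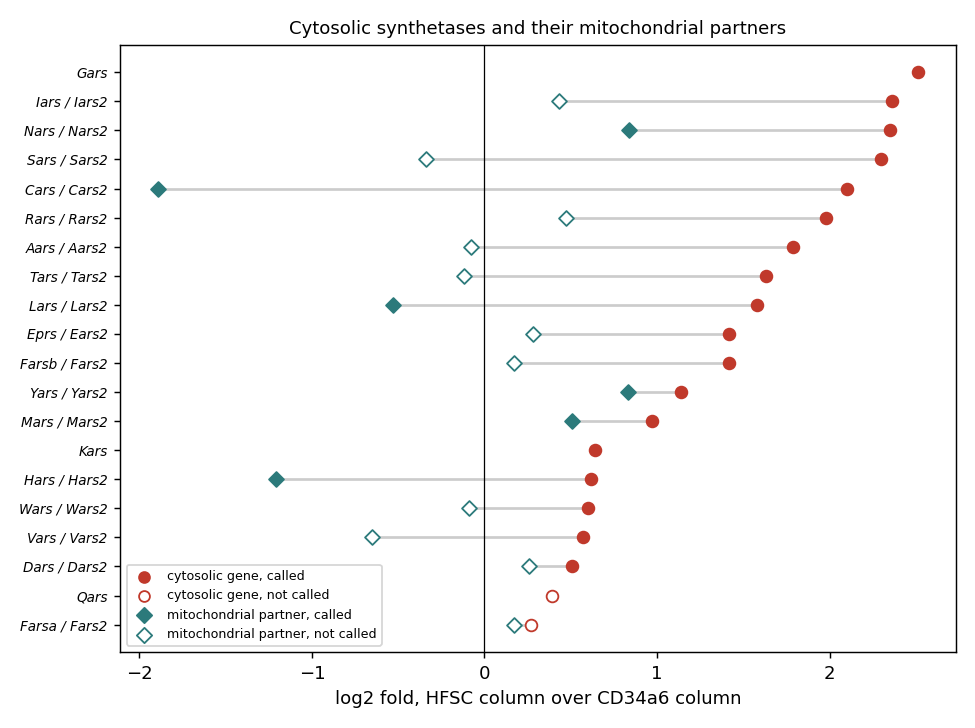
Deposited log2 fold of HFSC over CD34a6 for each of the 20 cytosolic synthetase genes (red circles) and the mitochondrial gene for the same amino acid (green diamonds), filled where the authors' adjusted p was under 0.05 and open where it was not. Circles run from 0.27 (Farsa) to 2.51 (Gars) and diamonds from -1.89 (Cars2) to 0.84 (Nars2), and each circle with a partner lies right of it.

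All 5 stress genes were higher in HFSC than in CD34a6, and by their medians their folds were larger than those of the synthetases. Trib3, a pseudokinase induced by ATF4, was at 56.0 FPKM in HFSC, 1.102 FPKM in CD34a6 and 13.7 FPKM in bulk. Chac1, an enzyme that degrades glutathione, was at 20.7 FPKM in HFSC, 0.666 FPKM in CD34a6 and 2.69 FPKM in bulk. Sesn2, a leucine sensor that restrains mTORC1, was at 22.5 FPKM in HFSC, 3.61 FPKM in CD34a6 and 13.3 FPKM in bulk. These genes kept the same order in the 3 populations, with HFSC highest and CD34a6 lowest, and all pairs among them were called. Atf4 itself was at 216 FPKM in HFSC, 73.4 FPKM in CD34a6 and 76.5 FPKM in bulk. Ddit3, which encodes the stress transcription factor CHOP, was at 46.9 FPKM in HFSC, 15.9 FPKM in CD34a6 and 17.6 FPKM in bulk. For Atf4 and Ddit3 the CD34a6 and bulk values lay close together, with adjusted p of 0.827 for Atf4 and 0.862 for Ddit3 in the authors' deposited table. The log2 folds of HFSC over CD34a6 in that table were 5.67 for Trib3, 4.96 for Chac1, 2.64 for Sesn2 and 1.56 for both Atf4 and Ddit3. ATF4 is controlled largely by translation, which transcript levels do not measure.

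Genes of amino acid synthesis, a group that here includes the mitochondrial folate genes Shmt2 and Mthfd2, were all higher in HFSC than in CD34a6. Asns, which makes asparagine, was at 174 FPKM in HFSC, 11.9 FPKM in CD34a6 and 43.6 FPKM in bulk, and all 3 pairs were called with adjusted p at 0.000212 according to the authors' deposited table. The serine pathway runs through Phgdh, Psat1 and Psph in that order. Phgdh was at 127 FPKM in HFSC, 32.3 FPKM in CD34a6 and 53.7 FPKM in bulk. Psat1 was at 284 FPKM in HFSC, 32.9 FPKM in CD34a6 and 147 FPKM in bulk. Psph was at 58.4 FPKM in HFSC, 23.4 FPKM in CD34a6 and 33.1 FPKM in bulk. The middle enzyme gene Psat1 thus had the largest fold of the pathway, a log2 fold of 3.11 against 1.97 for Phgdh and 1.32 for Psph in the authors' deposited table. Shmt2 passes the one-carbon unit of serine to folate in mitochondria, and Mthfd2 oxidises the folate that carries it. Shmt2 was at 106 FPKM in HFSC, 31.1 FPKM in CD34a6 and 46.3 FPKM in bulk. Mthfd2 was at 66.6 FPKM in HFSC, 6.73 FPKM in CD34a6 and 5.37 FPKM in bulk, and unlike Asns and Psat1 it was not called between CD34a6 and bulk.

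The cystine importer consists of the light chain xCT, encoded by Slc7a11, and the heavy chain 4F2hc, encoded by Slc3a2 and shared with other transporters. Slc7a11 was at 9.35 FPKM in HFSC, 0.0373 FPKM in CD34a6 and 0.139 FPKM in bulk. Slc3a2 was at 101 FPKM in HFSC, 59.0 FPKM in CD34a6 and 52.8 FPKM in bulk. Both were called higher in HFSC, but the log2 fold over CD34a6 in the authors' deposited table was 7.97 for Slc7a11 and 0.78 for Slc3a2. Slc7a11 was near 0 in CD34a6 and bulk, so the size of its fold rests on very low values, and CD34a6 against bulk was not tested by the authors.

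The promoters of the members were searched for the C/EBP-ATF response element, the sequence through which ATF4 is known to act, as TGATGNAA on either strand. Windows of 300 bases, from 250 before to 50 after each start, came from RefSeq on GRCm38.p6. Of the 26 members with an entry, 9 (34.6%) held a match, against 1219 (4.51%) of 27025 genes in the same table and 3.97% of its 32851 windows. For each of these members the match nearest the start is shown with the bases around it, on the strand of the gene and with the match in capitals, so that the element can be compared between synthetases and stress genes.
Iars (chr13:49682126-49682155, plus strand): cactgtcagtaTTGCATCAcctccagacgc
Aars (chr8:111033840-111033869, plus strand): agcgggtcactTTTCATCAgagcgctctga
Gars (chr6:55037960-55037989, plus strand): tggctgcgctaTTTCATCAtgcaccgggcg
Tars (chr15:11399655-11399684, minus strand): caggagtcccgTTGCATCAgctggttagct
Yars (chr4:129189895-129189924, plus strand): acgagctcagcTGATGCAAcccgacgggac
Trib3 (chr2:152344031-152344057, minus strand): ttagctcaggtTTACATCAgccgggcg
Chac1 (chr2:119351038-119351067, plus strand): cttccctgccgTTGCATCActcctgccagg
Asns (chr6:7693214-7693243, minus strand): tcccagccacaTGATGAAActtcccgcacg
Slc7a11 (chr3:50443642-50443671, minus strand): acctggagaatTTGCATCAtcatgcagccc
The capitals read TTGCATCA in Iars, Tars, Chac1 and Slc7a11, which is TGATGCAA on the other strand, the letters of Yars. Aars and Slc7a11 each held a further match. A match was found in 1 of 6 synthetases of the complex with an entry, 4 of 7 outside it, 2 of 5 stress genes, 1 of 6 synthesis genes and 1 of 2 transporters, and in 0 of 14 mitochondrial synthetases. The 9 members with a match had a median log2 fold of HFSC over CD34a6 of 2.51 (from 1.14 to 7.97), and the 17 without one 1.42 (from 0.27 to 3.31). The members were chosen with these folds known, and among genes known to be linked to ATF4. The share with a match and the medians therefore describe the choice and support nothing. The difference between the medians was not tested. A match is a description of letters and not a site of binding. No entry was found for Lars, Rars, Cars, Hars, Nars, Vars and Wars.

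Further genes of the pathway were listed beside the members for the same pair. These further lists were also chosen with earlier results of these data known, so their counts support nothing, here or elsewhere. Of 22 other genes linked to ATF4, 19 were higher in HFSC than in CD34a6 and 1 was lower, where 25.2% of all tested loci were called higher and 29.0% lower. Stc2, which encodes the secreted glycoprotein stanniocalcin, was at 25.5 FPKM in HFSC and 0.128 FPKM in CD34a6. Aldh1l2, an enzyme of mitochondrial folate, was at 12.1 FPKM in HFSC and 0.237 FPKM in CD34a6, and the translation repressor gene Eif4ebp1 at 141 FPKM in HFSC and 9.26 FPKM in CD34a6. The lower gene was Cbs, which uses serine to make cystathionine, at 12.7 FPKM in HFSC and 80.5 FPKM in CD34a6. Cth, the next enzyme of that route, was at 62.7 FPKM in HFSC and 5.95 FPKM in CD34a6, so the consecutive enzyme genes were called in opposite directions. Of 11 genes of cytosolic folate and serine use, a list that also holds Cth and Cbs, 3 were higher and 2 lower. Over all tested loci 25.2% were called higher and 29.0% lower. Sptlc2 of sphingolipid synthesis was among the higher, at 93.9 FPKM in HFSC and 26.6 FPKM in CD34a6. Of 8 genes for the eIF2 kinases and their partners, 2 were higher, near the 25.2% of all tested loci called higher in this pair. The higher genes were Eif2s1, the eIF2 alpha subunit (46.3 FPKM in HFSC and 14.8 FPKM in CD34a6), and Ppp1r15b, a subunit of its phosphatase (31.3 FPKM in HFSC and 15.1 FPKM in CD34a6). Eif2ak4, which encodes GCN2, was at 4.96 FPKM in HFSC and 6.15 FPKM in CD34a6 and did not pass, and was named for this pair after its values were seen.

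Of 13 genes of the unfolded protein response of the endoplasmic reticulum, chaperones and the transcription factors Xbp1 and Atf6 among them, 11 were higher in HFSC. The share of all tested loci called higher was 25.2%. Hspa5, the chaperone BiP, was at 369 FPKM in HFSC and 99.96 FPKM in CD34a6, Hyou1 at 48.9 FPKM in HFSC and 18.6 FPKM in CD34a6, and Sdf2l1 at 24.4 FPKM in HFSC and 9.79 FPKM in CD34a6. Other amino acid transporters had 6 higher and 4 lower of 11, where 25.2% of all tested loci were called higher and 29.0% lower. Slc7a1, an importer of arginine and lysine, was at 72.2 FPKM in HFSC and 8.08 FPKM in CD34a6. Slc7a2, a related importer, was at 0.325 FPKM in HFSC and 2.60 FPKM in CD34a6, and Slc43a1 at 0.0801 FPKM in HFSC and 2.09 FPKM in CD34a6. Whether these and the ATF4-linked genes moved in the same cells cannot be told from summed populations.

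**Figure D3:**
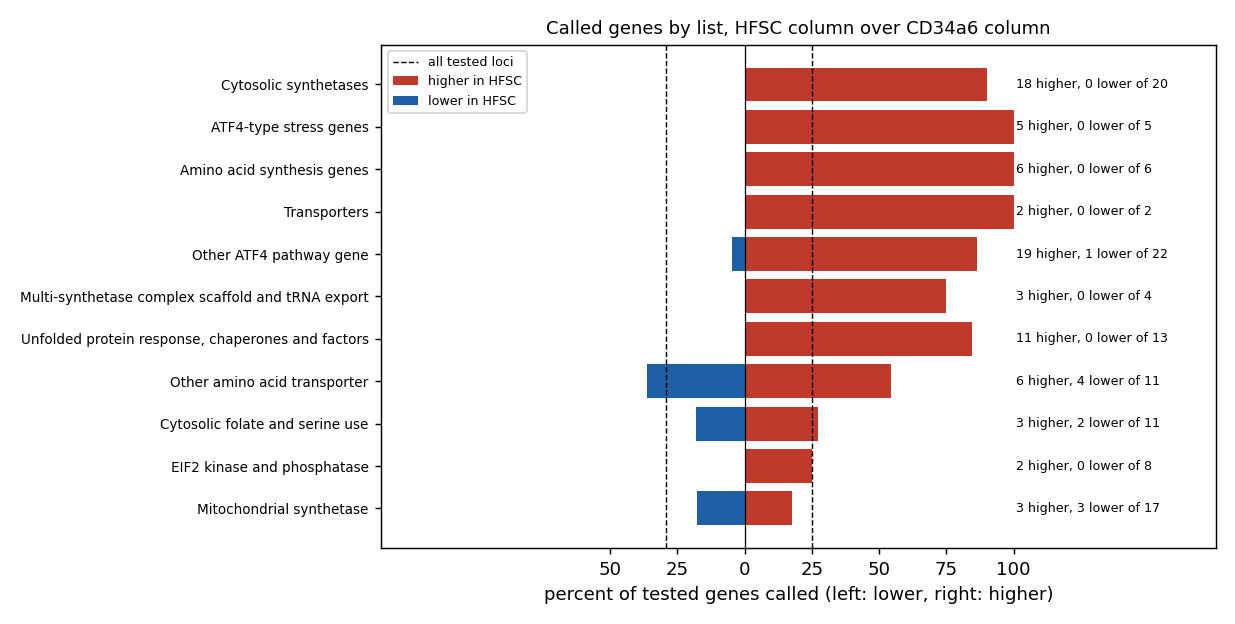
Percent of the tested genes of each list that the authors' deposited table called higher (red, to the right) or lower (blue, to the left) in HFSC than in CD34a6, with the counts printed beside the bars and dashed lines at the shares of all 13962 tested loci (25.2% higher and 29.0% lower). The cytosolic synthetases had 18 of 20 higher and the mitochondrial synthetases 3 higher and 3 lower of 17.

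Against bulk, 4 of 5 stress genes, 6 of 6 synthesis genes and 10 of 20 synthetases were higher in HFSC. Of 33 members, 22 were higher, 1 was lower and 10 did not pass, where 19.0% of all 14035 tested loci were called higher and 24.7% lower. Of the 20 synthetases 10 were higher, with Aars, Nars and Iars at the largest folds, and Qars was lower at 194 FPKM in HFSC against 506 FPKM in bulk. Of the 13 other members 12 were higher, and for Ddit3 the authors' deposited table gives an adjusted p of 0.226. The median log2 fold was 0.75 for synthetases, 1.50 for stress genes and 1.22 for synthesis genes, against -0.14 for all tested loci. Scaling FPKM to equal sums moves each fold of this pair by 0.93, and Qars stayed below 0. The 17 tested mitochondrial synthetases had 0 higher and 3 lower, among them Lars2 at 139 FPKM in HFSC and 617 FPKM in bulk, Cars2 at 5.70 FPKM in HFSC and 17.4 FPKM in bulk, and Pars2 at 2.32 FPKM in HFSC and 4.35 FPKM in bulk. The lower call of Pars2 changed sign with equal sums. Lars2 lay far above the list median of 7.33 FPKM in HFSC and 10.4 FPKM in bulk, and the reason was not tested. Of the other ATF4-linked genes 15 of 22 were higher and 2 lower, with Stc2 at 25.5 FPKM in HFSC and 0.286 FPKM in bulk, Aldh1l2 at 12.1 FPKM in HFSC and 0.268 FPKM in bulk, and Jdp2, a transcription factor gene, at 21.9 FPKM in HFSC and 0.575 FPKM in bulk. Slc7a1 was at 72.2 FPKM in HFSC and 4.54 FPKM in bulk. Xbp1, a transcription factor of the unfolded protein response, was lower at 42.3 FPKM in HFSC and 142 FPKM in bulk.

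The CD34a6 column was lower than bulk in part of the set. With FPKM scaled to equal sums, 3 of the 13 lower calls changed sign, as did the medians of synthetases and synthesis genes. Of 32 tested members 0 were higher, 13 were lower and 19 did not pass, where 22.0% of all 14441 tested loci were called higher and 24.3% lower. The lower synthetases were Qars, Gars, Sars, Hars, Rars, Cars, Mars and Dars, from a log2 fold of -1.80 for Gars to -0.78 for Dars in the authors' deposited table. The lower members among the rest were Trib3, Chac1, Sesn2, Psat1 and Asns, from -3.64 for Trib3 to -1.87 for Asns in that table. The median log2 fold of the synthetases was -0.61 as deposited and 0.56 with FPKM scaled to equal sums, a step that moves each fold of this pair by 1.17 and turned the lower calls of Dars, Mars and Cars above 0. The 20 synthetases made up 0.170% of the summed FPKM of CD34a6 and 0.159% of that of bulk. The median of the synthesis genes was -0.65 as deposited and 0.52 with equal sums, and that of the stress genes was -1.88 as deposited and -0.71 with equal sums. Among the stress genes, Atf4 and Ddit3 were not called and lay at -0.06 and -0.15 as deposited, and above 0 with equal sums. Eif2s1 was lower at 14.8 FPKM in CD34a6 and 40.1 FPKM in bulk, and Eif2ak4 was higher at 6.15 FPKM in CD34a6 and 1.48 FPKM in bulk.

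HFSC against CD34a6, HFSC against bulk and CD34a6 against bulk share populations, so their folds are not independent of each other. Marker genes of other cell types had values in each column. The summed level of 5 suprabasal markers, of differentiating epidermis, was 198 FPKM in HFSC, 1120 FPKM in CD34a6 and 34332 FPKM in bulk, over all loci of these symbols, with none of the 5 at 0 in any of them. Of the 5, HFSC had 2 called higher and 3 called lower against CD34a6, and all 5 were lower in HFSC and in CD34a6 than in bulk. The summed level of 5 immune markers was 1.29 FPKM in HFSC, 5.29 FPKM in CD34a6 and 316 FPKM in bulk, with 1 of the 5 listed at 0 in HFSC. That of 5 fibroblast markers was 0.597 FPKM in HFSC, 33.1 FPKM in CD34a6 and 4.34 FPKM in bulk. For 4 melanocyte markers it was 0.585 FPKM in HFSC, 8.34 FPKM in CD34a6 and 6.65 FPKM in bulk. For 3 endothelial markers it was 0.990 FPKM in HFSC, 0.381 FPKM in CD34a6 and 0.217 FPKM in bulk. The 10 loci with the highest FPKM took 12.2% of the summed FPKM in HFSC, 12.2% in CD34a6 and 20.9% in bulk. The part of these cells and loci in the member folds was not tested, and in summed RNA fewer cells of a type and less RNA per cell cannot be told apart. Of 7 bulge markers, all 7 were lower in HFSC than in CD34a6, while against bulk 2 were called higher and 4 lower in HFSC. In HFSC the 33 members made up 0.636% of the summed FPKM, against 0.242% in CD34a6 and 0.214% in bulk.

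Within 3C cultures, no member was called between the CD34+ and CD34neg fractions. The authors' test found 0 of 33 members with an adjusted p under 0.05, where 2.08% of all 11370 tested loci were called higher and 4.71% lower in CD34+. The smallest adjusted p of a member was 0.0867 in the authors' deposited table, for Dars. Before adjustment, 4 members had a p under 0.05, which were Dars, Sars, Psat1 and Psph, as had 22.6% of all tested loci. Psat1 was the most abundant member per length, at 727 FPKM in CD34+ and 1067 FPKM in CD34neg. Psph was at 58.4 FPKM in CD34+ and 102 FPKM in CD34neg, and Dars at 79.5 FPKM in CD34+ and 126 FPKM in CD34neg. Sars was at 52.1 FPKM in CD34+ and 80.0 FPKM in CD34neg. All 4 were lower in value in CD34+, though none passed. Asns was at 172 FPKM in CD34+ and 189 FPKM in CD34neg, Atf4 at 104 FPKM in CD34+ and 129.7 FPKM in CD34neg, and Trib3 at 9.64 FPKM in CD34+ and 6.95 FPKM in CD34neg. Slc7a11 was at 7.79 FPKM in CD34+ and 6.15 FPKM in CD34neg, and Mthfd2 at 46.2 FPKM in CD34+ and 35.9 FPKM in CD34neg. The median log2 fold was 0.03 for synthetases, -0.08 for stress genes and -0.28 for synthesis genes, against -0.08 for all tested loci. With FPKM scaled to equal sums these medians were 0.44 for synthetases, 0.33 for stress genes and 0.13 for synthesis genes, so the sign of the stress and synthesis medians depended on the scaling. As deposited, 16 of 33 members lay above 0, where 44.4% of all tested loci did, and 28 with FPKM scaled to equal sums. Without a value per library the interval of these differences cannot be given, so the missing calls do not show that the fractions are alike.

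Some genes beside the members did pass in that comparison. Lars2 was lower at 378 FPKM in CD34+ and 1395.5 FPKM in CD34neg. Its cytosolic counterpart Lars was at 24.6 FPKM in CD34+ and 24.8 FPKM in CD34neg. Lars2 lay far above the median of the 17 mitochondrial synthetases, 4.28 FPKM in CD34+ and 3.96 FPKM in CD34neg. Why its values are so high was not tested, so its fold may not be that of a synthetase transcript alone. Sdf2l1 was lower at 9.10 FPKM in CD34+ and 18.6 FPKM in CD34neg. The transporter genes Slc7a8, at 9.26 FPKM in CD34+ and 1.23 FPKM in CD34neg, and Slc7a2, at 1.87 FPKM in CD34+ and 0.291 FPKM in CD34neg, were higher. Cd34 was at 38.7 FPKM in CD34+ and 2.26 FPKM in CD34neg, the direction of the sort.

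Between cultures with dorsomorphin, an inhibitor of BMP type I receptors and of AMP-activated protein kinase, and cultures with cyclopamine, an inhibitor of Smoothened in the Hedgehog pathway, 1 member was called. Sesn2 was higher at 13.7 FPKM with dorsomorphin and 9.44 FPKM with cyclopamine, with a log2 fold of 0.54 and adjusted p at 0.0268 according to the authors' deposited table. Of all 11505 tested loci, 1.26% were called higher and 1.31% lower with dorsomorphin. The deposited table has no untreated culture beside the drugs, so a difference cannot be placed with either of them. The 13 stress, synthesis and transport members all had values above 0 on the log2 scale, from 0.06 for Shmt2 to 0.57 for Trib3, and 47.0% of all tested loci did. Over all 33 members 22 lay above 0 and 11 below as deposited, and those below were all synthetases. With FPKM scaled to equal sums, 29 of the 33 lay above 0, so this split depended on the scaling. Before adjustment, 7 members had a p under 0.05 in the authors' test, as had 12.6% of all tested loci. The 7 were Farsa, which was below 0, and Atf4, Trib3, Chac1, Sesn2, Psat1 and Mthfd2. Trib3 was at 17.8 FPKM with dorsomorphin and 12.0 FPKM with cyclopamine, and Chac1 at 22.5 FPKM with dorsomorphin and 16.5 FPKM with cyclopamine. Atf4 was at 244 FPKM with dorsomorphin and 199 FPKM with cyclopamine, Mthfd2 at 76.1 FPKM with dorsomorphin and 58.9 FPKM with cyclopamine, and Asns at 254 FPKM with dorsomorphin and 207 FPKM with cyclopamine. None of these genes passed, with adjusted p of 0.144 for Trib3, 0.170 for Chac1, 0.251 for Atf4, 0.268 for Mthfd2 and 0.565 for Asns in the authors' deposited table. The stress gene median was 0.44 and the synthesis gene median 0.21, against -0.02 for all tested loci.

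The 20 synthetases were split between the drugs as deposited, with 9 above and 11 below 0, and a median log2 fold of -0.02. Scaling FPKM to equal sums moves each fold of this pair by 0.11 and brought that median to 0.09. The synthetase with the largest difference was Farsa, at 8.01 FPKM with dorsomorphin and 11.6 FPKM with cyclopamine, for which the authors' deposited table gives an adjusted p of 0.127. Nars was at 245.9 FPKM with dorsomorphin and 228 FPKM with cyclopamine, and Gars at 125 FPKM with dorsomorphin and 128 FPKM with cyclopamine. Slc7a11 was at 21.7 FPKM with dorsomorphin and 18.8 FPKM with cyclopamine. Of 21 tested further ATF4-linked genes, 3 were higher with dorsomorphin and 0 lower. Stc2 was at 35.0 FPKM with dorsomorphin and 18.7 FPKM with cyclopamine, Herpud1, of protein degradation at the endoplasmic reticulum, at 56.4 FPKM with dorsomorphin and 33.4 FPKM with cyclopamine, and Eif4ebp1 at 155 FPKM with dorsomorphin and 114 FPKM with cyclopamine. Their adjusted p were 0.00479, 0.0187 and 0.0388 in the authors' deposited table. No gene was called among 17 mitochondrial synthetases, 13 genes of the unfolded protein response and 9 tested transporters. Of 6 tested bulge markers 0 were higher and 1 was lower with dorsomorphin, the keratin gene Krt15, and of 5 suprabasal markers 1 was higher and 2 were lower. The part of such cells in these values was not tested.

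**Figure D4:**
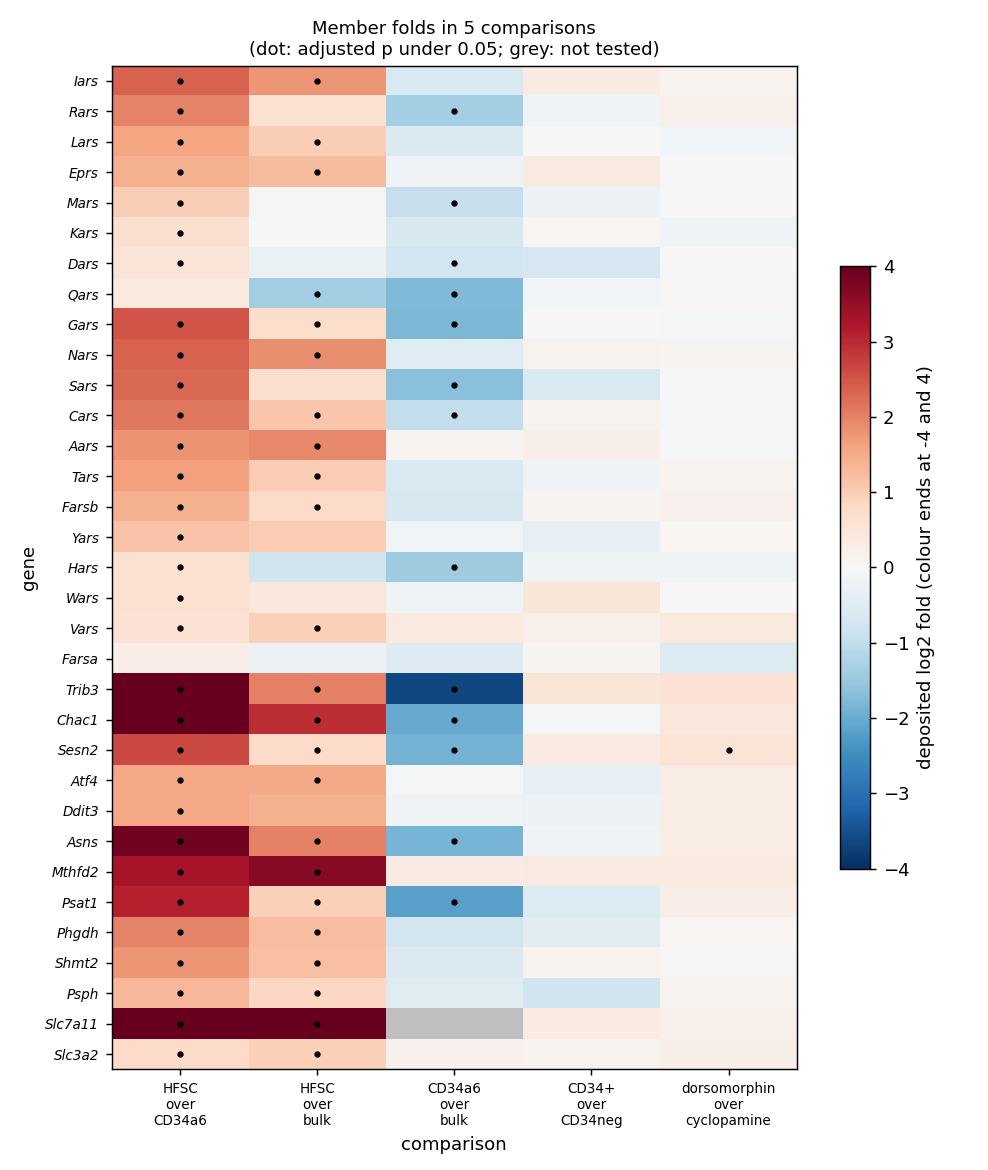
Deposited log2 fold of each member (rows) in the 5 comparisons (columns), red where the population named on top was higher and blue where it was lower, with a dot where the authors' adjusted p was under 0.05 and grey where no test was made. The column of HFSC over CD34a6 has 31 dots, that of HFSC over bulk 23, that of CD34a6 over bulk 13 (3 of which turn above 0 with FPKM scaled to equal sums), that of CD34+ over CD34neg 0 and that of dorsomorphin over cyclopamine 1, at Sesn2.

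Some loci could mix reads of neighbouring genes. On GRCm38, the build of the deposited loci, Mars and Ddit3 shared the locus chr10:127289696-127311786, so the deposited values of these members may not be independent. Of the 33 members, 8 lay at a locus that covers another coding gene, the rest of these being Aars with Exosc6, Farsb with Sgpp2, Hars with Hars2, Wars with Wdr25, Yars with C77080 and Shmt2 with Ndufa4l2. Hars and Hars2 were called in opposite directions between HFSC and CD34a6. The library kit keeps strand, but whether counting used it is not given in the sources used here. Other members with large folds had loci of their own. Trib3 at chr2:152337422-152344032, Chac1 at chr2:119351229-119354381, Asns at chr6:7675169-7693254, Psat1 at chr19:15904678-15947337 and Slc7a11 at chr3:49892526-50443614 each lay at the ends of the gene in GENCODE vM21. Mthfd2 also had a locus of its own, but not at the ends of the gene there. Of the 33 members, 18 lay at the ends of the annotated gene.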

How the data were processed

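The 3 deposited tables are laid out like Cuffdiff output, per the file headers, with the authors' FPKM for each locus and population, their log2 fold, a test score, a p-value and an adjusted p-value. The submitters' processing notes give 2 sets of tools. For the table with 3 populations (9 libraries) these were HISAT 0.1.6 and StringTie 1.1.0, then Cufflinks 2.2.1 with Cuffdiff, after FastQC 0.11.3, although the labels describe a TopHat2 alignment. For the remaining 12 libraries the authors list DESeq2 1.8.1, featureCounts (Subread 1.4.2), TopHat2 2.0.13, cutadapt 1.5 and FastQC 0.11.2, per the submitters' processing notes. Which of these tools made the deposited p-values of the sorted fraction and drug tables is not known. All used GRCm38. No test of genes was made here, and read depth was unknown.

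With Python 3.11.15 and pandas 2.3.3, repeated lines were dropped (197, 1360 and 1358), each fold was turned to the order named in the text, and calls were counted by role. The adjusted p-values in the deposited tables matched Benjamini-Hochberg values over all tested loci of a table to within 5.3e-07. No p-value in them was below 5e-05. The column 3C_HFSC of the sorted fraction table was read as CD34+. The steps were tested on simulated data. Members and lists were chosen with earlier results of these data known. Of each further list, up to 3 called genes of at least 1 FPKM with the largest finite folds were to be named per comparison, and some of these are left out. Alternatives were a stricter threshold, adjustment within a pair, a filter on low FPKM, pseudocounts of 0.1 and 1 FPKM, other scalings, summed loci and loci free of other genes. Synthetase protein signatures were not searched.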

Additional observations from a re-analysis of the deposited data

How the results depend on the processing

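No paired analysis was possible because the tables hold 1 value per population and none per library, and leaving out a replicate was not possible for the same reason. The search for synthetase signatures was not run. A median was taken to have moved where it shifted by more than the spread of its members allows (the interquartile range divided by 2). With adjusted p under 0.01, members called in HFSC against bulk were 14 higher and 0 lower, and 0 were higher with dorsomorphin. With FPKM scaled to equal sums, the medians of synthetases, stress and synthesis genes were 1.67, 2.43 and 2.15 for HFSC against bulk, 0.56, -0.71 and 0.52 for CD34a6 against bulk, and 0.44, 0.33 and 0.13 for CD34+ against CD34neg, and those of synthetases and synthesis genes 0.09 and 0.32 for dorsomorphin against cyclopamine. That scaling turned the sign of the further listed genes Pars2 (0.02), Aimp1 (0.01) and Sptlc1 (0.09) for HFSC against bulk, and of the members Dars (0.39), Mars (0.25) and Cars (0.19) and the further genes Fars2 (0.35), Aimp1 (0.10), Eef1e1 (0.10), Calr (0.23) and Sptlc1 (0.00) for CD34a6 against bulk. With the trend on exonic length subtracted, an alternative chosen after seeing the data, the stress gene median was 2.08 for HFSC against bulk and 0.42 for CD34+ against CD34neg, where it was 0.13 without loci that cover another coding gene. The cause was not tested beyond the scaling itself. No setting that was run changed a direction or a side of the threshold for the counts and medians of HFSC against CD34a6, where among named genes Hars, Vars, Nars2 and Aimp2 passed at 0.05 but not at 0.01.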
